A study of Mus musculus with 2 samples.

Results

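A cassette exon is an exon that some transcripts of a gene keep and others leave out. In a list of splice junctions it leaves a triplet: an intron upstream of the exon, an intron downstream of it, and a longer intron, here the skipping junction, that runs from the start of the first to the end of the second. Over both libraries together, 1010 such triplets were found among 131057 splice junctions, selected on read counts: the exon between the inner introns was 10 to 500 bases long, and each of the 3 introns had at least 5 reads summed over the libraries. They held 981 distinct exons, 791 skipping junctions and 649 gene names, and used 2413 junctions (1.84% of all). Triplets are not independent of each other, because many share an intron, and they fell into 730 clusters with no shared intron. A single gene, Dnm2, held 139 of the triplets around 1 skipping junction, and most values below are given without it, which left 871.

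The RNA came from peritoneal exudate cells of C57BL/6JJcl mice, all male, collected 3 days after an injection of the irritant thioglycolate, from which macrophages were kept by adherence for 24 h. One group received interleukin 10 (IL-10), an anti-inflammatory cytokine, at 100 ng/ml for 4 h, and the other group was untreated. Each group was 1 library, so differences have no check by replicates, no p-value is given, and all intervals cover counting error only. The labels do not say how many mice gave each library, and the protocol text is the same for both samples, treatment included, so titles gave the groups.

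The libraries held 3998954 (IL-10) and 4035991 (untreated) reads across splice junctions. Reads of at least 20 were found for 7 of 8 macrophage markers (59782 and 76657 reads summed), while Cd14 had no read on a named intron. A gene was named only where at least 2 of its introns matched the annotation. A gene with fewer matched introns has 0 reads here whatever its level, so a 0 does not show absence. Summed reads of the other lists were 311 and 267 for 8 neutrophil markers (7 of them at 0), 5 and 6 for 4 B cell markers, 7 and 0 for 5 T and NK cell markers, 103 and 68 for 6 eosinophil and mast cell markers, and 1259 and 1152 for 7 fibroblast and mesothelial markers. The part of other cell types in the values below was not tested.

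Splicing joins exons after the spliceosome has marked a donor site at the start of an intron and an acceptor site at its end, and RNA-binding proteins such as SR proteins and hnRNPs promote or repress the use of weak sites. An exon whose length divides evenly by the codon size can be skipped without shifting the reading frame, and adds or removes a peptide. An exon of another length shifts the frame when skipped, and one that carries a stop codon in frame, often called a poison exon, exposes the transcript to nonsense-mediated decay. Macrophages are known to make splice forms of adhesion proteins, antigen presentation proteins and cytokine receptors.

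The sequences of exons that the results turn on are given 5′ to 3′ from GENCODE M21 transcripts, to which the deposited introns were matched by length. Coordinates throughout are those of the deposited mm9 lists. The first set holds the exon with the largest difference between the libraries among those with the reads for the comparison defined below. It also holds a phosphatase exon with a smaller difference that both of its introns shared. Capitals mark the last 3 bases, which abut the donor site.
Usp15, chr10:122590097-122590183, minus strand: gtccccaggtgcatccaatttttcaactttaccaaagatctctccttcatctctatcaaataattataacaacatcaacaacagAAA
Dusp3, chr11:101842931-101843157, minus strand: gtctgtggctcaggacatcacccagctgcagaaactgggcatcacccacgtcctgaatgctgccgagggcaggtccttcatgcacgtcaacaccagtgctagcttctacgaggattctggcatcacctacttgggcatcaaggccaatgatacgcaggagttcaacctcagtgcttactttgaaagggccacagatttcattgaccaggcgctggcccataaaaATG

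The second set shows exons of RNA-binding proteins and of a transcription factor that are short enough to be read whole, again with the last 3 bases in capitals. The Hnrnpa2b1 exon separates the B1 from the A2 form of the protein, and the Max exon adds a peptide near the start of the partner protein of Myc.
Hnrnpa2b1, chr6:51417390-51417425, minus strand: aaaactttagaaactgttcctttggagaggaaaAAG
Hnrnpd, chr5:100405553-100405609, minus strand: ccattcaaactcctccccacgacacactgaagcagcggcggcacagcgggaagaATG
Ptbp1, chr10:79322862-79322939, plus strand: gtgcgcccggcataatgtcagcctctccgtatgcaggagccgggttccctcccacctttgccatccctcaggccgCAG
Max, chr12:78062250-78062276, minus strand: gaagagcaaccgaggtttcaatctGCG

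The third set shows exons of surface, matrix and cytoskeletal proteins, with the last 3 bases in capitals. The longer Fn1 exon is EIIIB and the shorter is EIIIA, the extra domains of fibronectin.
Flna, chrX:71478306-71478329, minus strand: tgtcaatcggaggtcacgggcTAG
Picalm, chr7:97342783-97342806, plus strand: aatggcatgcattttccacaaTAC
Zyx, chr6:42301269-42301361, plus strand: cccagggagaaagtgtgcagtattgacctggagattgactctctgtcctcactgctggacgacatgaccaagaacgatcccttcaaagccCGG
Fcgr2b, chr1:172893456-172893596, minus strand: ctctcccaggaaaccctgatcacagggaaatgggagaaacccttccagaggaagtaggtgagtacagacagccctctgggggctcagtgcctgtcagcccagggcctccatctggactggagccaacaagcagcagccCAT
Fn1 EIIIA, chr1:71650234-71650503, minus strand: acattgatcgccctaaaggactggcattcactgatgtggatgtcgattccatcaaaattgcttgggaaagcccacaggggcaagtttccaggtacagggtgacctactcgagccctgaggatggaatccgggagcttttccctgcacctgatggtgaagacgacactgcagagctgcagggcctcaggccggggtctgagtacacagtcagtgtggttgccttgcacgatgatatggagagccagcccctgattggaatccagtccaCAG
Fn1 EIIIB, chr1:71660337-71660609, minus strand: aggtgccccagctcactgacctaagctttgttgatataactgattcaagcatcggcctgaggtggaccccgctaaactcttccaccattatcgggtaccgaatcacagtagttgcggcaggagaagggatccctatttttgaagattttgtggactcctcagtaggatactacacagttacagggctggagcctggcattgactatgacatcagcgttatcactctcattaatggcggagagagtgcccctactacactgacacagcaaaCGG

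The fourth set shows the start of exons that put a stop codon into the frame of the transcript, each printed from its first base to the stop, which is in capitals.
Il4ra, within chr7:132715448-132715561, plus strand: caagtaatgaaaatctgTGA
Sat1, within chrX:151649664-151649773, minus strand: gttacagtctcTAG
Rbm39, within chr2:156004616-156004688, minus strand: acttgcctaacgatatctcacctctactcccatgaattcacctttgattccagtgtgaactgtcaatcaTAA

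Inclusion was measured as the mean of the reads on the upstream and downstream introns, divided by that mean plus the reads on the skipping junction. The denominator is called the informative reads. A triplet was compared between libraries where each library had at least 20 informative reads. It was called where inclusion differed by at least 20 percentage points and the 95% intervals of the libraries did not overlap. The intervals treat upstream and downstream reads as independent. A read that crosses the whole of a short exon can count on both inner introns, and the interval is then too narrow. Of the 1010 triplets, 790 (78.2%) had the reads for this comparison, and 220 did not. The choice of triplets by reads shapes the levels, since an exon that is never skipped, or never kept, forms no triplet. It also fixes how rare the rarest intron can be: in 213 triplets that intron had exactly 5 reads over both libraries, with a median of 8 over all triplets. Just inside this limit were the 93-base exon of Laptm5 (1874 upstream, 911 downstream and 3 skipping reads with IL-10, and 2163, 1029 and 2 untreated) and a 429-base interval in Capg (510, 1196 and 2, and 498, 1502 and 3). Just outside were a 162-base exon of Mmp12 (8596, 22687 and 2, and 12248, 23753 and 2) and a 198-base exon of Psap (21985, 3260 and 0, and 28281, 3519 and 4).

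Inclusion differed by under 5 points between the libraries in most compared triplets, many of which were nearly always kept or skipped. Without Dnm2, 651 triplets with 628 exons were compared, and median inclusion was 84.2% with IL-10 and 83.6% untreated. Inclusion was over 90% in 262 and 259 triplets, between 10% and 90% in 312 and 319, and under 10% in 77 and 73. The difference, IL-10 minus untreated, had a median of -0.0337 points, and its absolute size was under 5 points in 437 triplets (67.1%), under 10 in 565 (86.8%) and under 20 in 643 (98.8%). Over the 310 triplets at 10% to 90% mean inclusion, the median absolute difference was 5.20 points, and the counting interval of the difference reached a median of 15.9 points to either side. Inclusion was numerically higher with IL-10 in 317 triplets and lower in 332. Across the 651 triplets, inclusion in one library followed inclusion in the other with a Pearson r of 0.981, a description over exons that share introns and libraries.

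**Figure D1:**
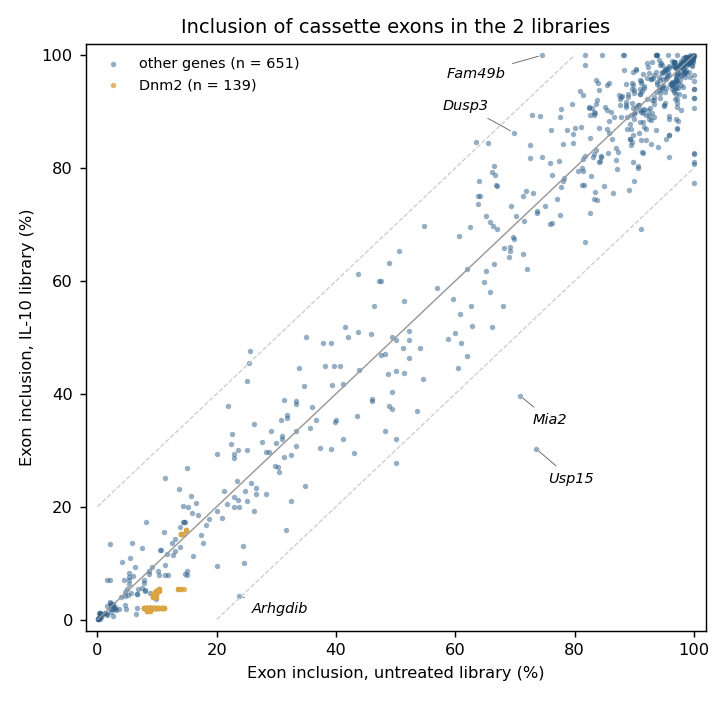
Inclusion of each compared triplet in percent, with the untreated library on the horizontal axis and the IL-10 library on the vertical axis. Blue points are 651 triplets outside Dnm2 and yellow points the 139 in Dnm2. The solid line marks equal inclusion and the dashed lines a difference of 20 points. Usp15 and Mia2 lie farthest below the lower dashed line, and the Dnm2 points lie near the origin, most of them below the solid line.

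One triplet of the 790 was called, a share of 0.127% (0.154% of the 651 without Dnm2), and it was lower with IL-10. By the same limits, 27 of 20246 shares of single junctions at all donor and acceptor sites were called (0.133%), and 19 of 17733 (0.107%) among junctions in no triplet. The percentages are of like size, but a single called triplet is too few to compare them. The inclusion of a triplet and the share of a single junction are also unlike measures.

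The called exon is the 87-base coding exon of Usp15, a ubiquitin-specific protease, whose 3 introns all match annotated introns. With IL-10 the upstream intron had 3 reads, the downstream intron 10 and the skipping junction 15. Untreated, these had 7, 32 and 7. Inclusion was 30.2% (95% interval 15.9% to 49.4%) with IL-10 and 73.6% (55.2% to 88.1%) untreated, a difference of -43.4 points (-63.7 to -16.8). Skipping reads outnumbered the mean of the inclusion reads with IL-10, and the reverse held untreated. From the downstream intron alone, inclusion was 40% and 82.1%, and from the upstream intron alone it was 16.7% and 50%, where the intervals overlapped. The informative reads numbered 21.5 and 26.5, and the call was lost with 99% intervals, with the upstream intron alone and with at least 50 informative reads. Reads of the whole gene numbered 569 and 713, a ratio of 0.804 (0.719 to 0.899). The exon leaves the frame unchanged when skipped, since its length divides by 3.

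Another 7 compared exons differed by at least 20 points with overlapping intervals, so none was called, and 6 of them, chosen after their values were seen, are described here. None of the 8 exons with such a difference, Usp15 included, had more than 41 informative reads in either library. The 72-base coding exon of Mia2, which encodes a protein of the exit sites of the endoplasmic reticulum, had 39.6% inclusion with IL-10 (6 upstream, 15 downstream and 16 skipping reads) and 70.9% untreated (17, 22 and 8), a difference of -31.3 points (-52.4 to -6.01). The 83-base exon of Fam49b had no skipping read with IL-10 (14, 39 and 0) and 7 untreated (10, 31 and 7), which gave 100% (87.4% to 100%) and 74.5% (56.5% to 88.6%). In both genes the interval of the difference lay on one side of 0. Inclusion was 84.6% and 63.4% for a 183-base exon of Creb1, a transcription factor activated by cyclic AMP signalling, 27.7% and 50% for a 117-base exon of the phosphatase subunit gene Ppp2r5c, 47.6% and 25.6% for a 408-base exon of Epb41l1, and 69.2% and 91.1% for a 164-base exon of BC037034. For these 4 the interval of the difference included 0.

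The spread of the difference narrowed with depth. Without Dnm2, its SD was 9.47 points over 256 triplets with 20 to 50 informative reads in the shallower library, 5.74 over 152 with 50 to 100, 3.19 over 181 with 100 to 500, and 1.03 over 62 with 500 or more. The largest absolute differences in these ranges were 43.4, 19.0, 16.5 and 5.82 points. The counting interval of the difference reached a median of 17.3 points to either side in the shallowest range and 0.789 in the deepest. A difference of 20 points was therefore close to the counting error of a typical triplet in the shallowest range.

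**Figure D2:**
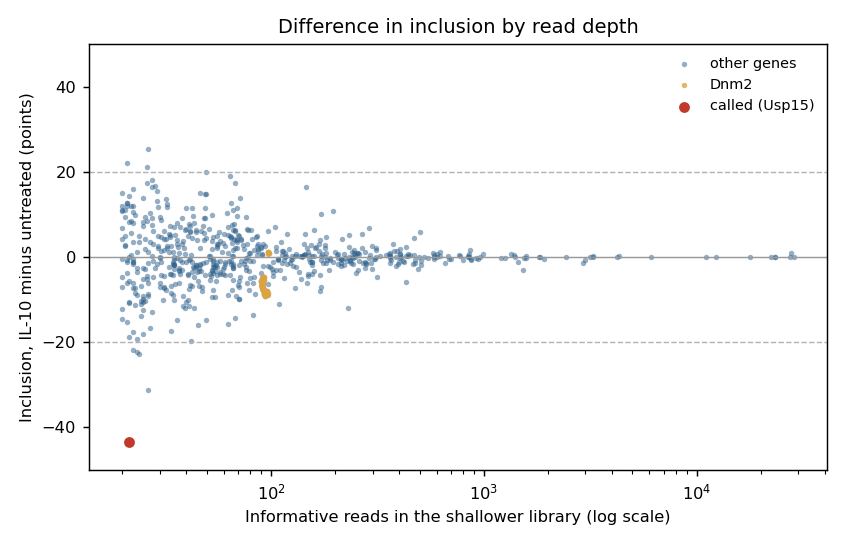
Difference in inclusion, IL-10 minus untreated, in percentage points against the informative reads of the shallower library on a log scale, for each compared triplet. Blue points are triplets outside Dnm2, yellow points are Dnm2, the red point is Usp15 and dashed lines mark 20 points either way. The points narrow toward 0 as reads increase, from an SD of 9.47 points at 20 to 50 reads to 1.03 at 500 or more.

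At any size of difference, the intervals of the libraries did not overlap in 58 of the 790 triplets (7.34%), of which 47 were in Dnm2. Without Dnm2 they numbered 11 of 651 (1.69%), 4 higher and 7 lower with IL-10, and some of them share introns. The values were 0.479% for junction shares at all donor and acceptor sites and 0.367% for those in no triplet. These are unlike measures. A triplet pools its inner introns and needs at least 5 summed reads on each intron. A junction share is that of a single junction, chosen by the reads of its whole site. The percentages are therefore not read as a result about cassette exons. These 11, chosen after their values were seen, are given next.

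Dusp3, which encodes a dual-specificity phosphatase that acts on MAP kinases, had a 227-base coding exon with 144 upstream, 108 downstream and 20 skipping reads with IL-10, and 109, 113 and 48 untreated. Inclusion was 86.3% (79.97% to 91.3%) and 69.8% (62.8% to 76.4%), a difference of 16.5 points (7.39 to 25.1), the largest among triplets with at least 100 informative reads. Both sides gave the same direction, with 87.8% and 69.4% from the upstream intron and 84.4% and 70.2% from the downstream intron. Reads of the gene were equal, 277 and 277. Skipping of this exon shifts the frame, since 227 bases do not divide by 3.

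In Arhgdib, a gene of blood cells, a 115-base exon that is in no annotated transcript had 0 upstream, 4 downstream and 46 skipping reads with IL-10 and 7, 13 and 32 untreated, so inclusion was 4.17% and 23.8% (difference -19.6 points, -32.2 to -8.29). The same exon seen against another, more abundant skipping junction (206 and 199 reads) had 1.90% and 3.63%, with overlapping intervals. The 2 values share the downstream reads, and the level therefore depends on which skipping junction is taken.

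Among abundant genes, small differences stood outside the counting error. Anpep, the gene of the surface peptidase CD13, had an 82-base noncoding exon with 142, 60 and 399 reads with IL-10 and 217, 80 and 884 untreated, or 20.2% and 14.4% (5.82 points, 2.65 to 9.13). A 48-base form of the same exon, which shares its upstream intron, had 15.5% and 11.1%. Aldoa, a glycolytic aldolase gene, had a 153-base exon with 49, 168 and 2054 reads and 65, 180 and 1411, or 5.02% and 7.99% (-2.97 points, -4.21 to -1.77), and a 165-base form with 1.25% and 2.35%. Upstream and downstream reads of these exons differed by more than 2-fold within each library.

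In the lysosomal precursor gene Psap, a 132-base exon was skipped by 11 reads with IL-10 and 1 untreated, against 11039 upstream and 13612 downstream reads and 12018 and 15040, so inclusion was 99.91% and 99.99%. In Gpnmb, a transmembrane glycoprotein gene abundant in these cells, an unannotated 95-base exon had 529 upstream reads with IL-10 and 0 untreated, while its downstream intron had 153 and 145 reads and its skipping junction 27341 and 27686. Inclusion was 1.23% and 0.261%, and the downstream intron alone gave 0.556% and 0.521%. A 57-base form of that exon had 0 upstream reads with IL-10 and 16 untreated, the reverse order. The upstream reads of the 95-base form were not matched by its downstream reads, and the use of different acceptors and the placement of reads by the aligner cannot be told apart.

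The last of the 11 lie together on chromosome 10. A 110-base interval without a gene name had 31, 169 and 135 reads with IL-10 and 23, 227 and 104 untreated, or 42.6% and 54.6%. A 22-base interval named for the lysozyme gene Lyz2 shares its upstream and skipping introns and had 95.4% and 96.8%. Lyz2 has a close relative next to it, so the placement of these reads is uncertain.

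**Figure D3:**
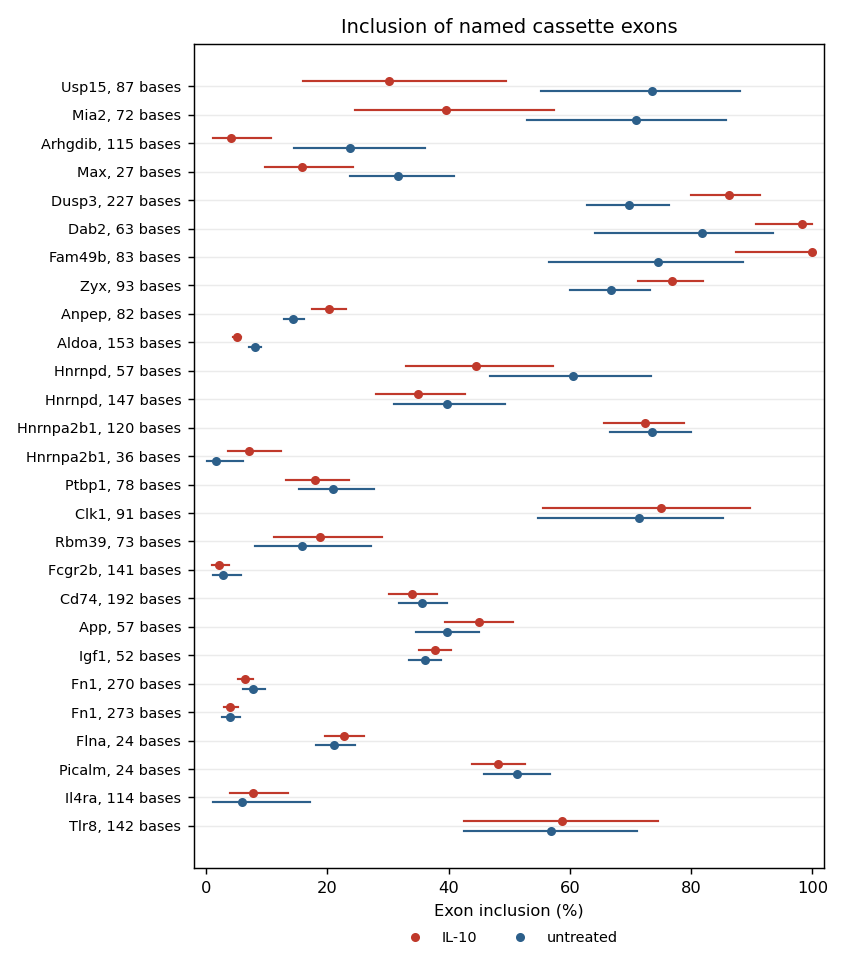
Exon inclusion in percent for 27 cassette exons, IL-10 in red and untreated in blue, with horizontal bars for the 95% counting interval of each library. Intervals are apart for Usp15, Arhgdib, Dusp3, Anpep and Aldoa, and overlap for the other exons shown. For Arhgdib the skipping junction with the larger difference is drawn.

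Dnm2 encodes dynamin 2, a GTPase that pinches vesicles from membranes. Its 139 triplets shared 1 skipping junction, chr9:21304814-21307985, which had 95 reads with IL-10 and 83 untreated, and were every allowed pairing of 26 introns that begin at its start with 18 that end at its end. The inner splice sites were regularly spaced: 20 of 25 steps between successive exon starts were 44 or 45 bases. No exon of the 139 was annotated. All 26 introns at the start had more reads untreated, 31 reads summed with IL-10 against 144, with at most 3 and 10 reads on any one. Of the 18 introns at the end, 17 had more reads untreated (111 against 224 summed). Inclusion lay between 1.55% and 15.9% with IL-10 and between 7.78% and 14.9% untreated, and was lower with IL-10 in 130 triplets. The gene as a whole had 1501 and 1232 reads, a ratio of 1.23 (1.14 to 1.32). Regular spacing of this kind occurs in tandem repeats, and the files do not tell whether 1 read was counted at several introns. The 139 triplets therefore stand for 1 observation at most.

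No triplet of the 59 listed splicing regulators was called. These genes regulate splicing of other genes and often of their own transcripts. Of the 59, 19 had a triplet, with 32 triplets and 28 compared. Inclusion was numerically higher with IL-10 in 11 and lower in 17, with a median difference of -1.09 points beside -0.0337 over all 651. The deepest was the 120-base exon of Hnrnpa2b1, which encodes part of the glycine-rich region of an RNA-binding hnRNP, with 108, 129 and 45 reads with IL-10 and 119, 110 and 41 untreated, or 72.5% and 73.6%. The 36-base exon that distinguishes the B1 form of the same protein had 6, 6 and 79 reads and 2, 0 and 59, or 7.06% and 1.67% (interval of the difference -0.146 to 10.8). The B1 form was thus the minor one in both libraries.

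Ptbp1 encodes a repressor of exons with pyrimidine-rich acceptors. Its 78-base exon, which lies between RNA-binding domains, had 8, 40 and 110 reads with IL-10 and 7, 39 and 87 untreated, or 17.9% and 20.9%. The reads of its upstream intron were fewer than those of its downstream intron in both libraries. Its relative Ptbp3 had 11.5% and 11.6% for a 34-base exon. The branch point binding protein gene Sf1 had 97.8% and 98.1% for a 76-base exon. Hnrnpd encodes AUF1, a binder of AU-rich elements in messages of cytokines, in forms set by 2 cassette exons. The 57-base exon had 18, 27 and 28 reads with IL-10 and 34, 21 and 18 untreated, or 44.6% and 60.4% (-33.3 to 2.65 points), and the 147-base exon had 35.0% and 39.8%. Both Hnrnpd intervals of the difference included 0.

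The kinase gene Clk1, whose 91-base exon is needed for an open frame through the kinase domain, had 75% and 71.4%. The poison exon of Rbm39, 73 bases with a stop at base 70, had 6, 13 and 41 reads with IL-10 and 4, 8 and 32 untreated, or 18.8% and 15.8%. Mbnl1, a muscleblind family splicing factor, had 7 triplets that share introns, among them a 36-base exon with 81.0% and 75.8%. In Mbnl2, a 95-base exon passed the limits from its intron of lower coordinate alone, with 11.5% and 51.2%. It was not called from both inner introns, and no exon passed from the intron of higher coordinate alone. The 139-base exon of Hnrnph3 had 76.5% and 12.5%, from 4, 9 and 2 reads with IL-10 and 2, 0 and 7 untreated, which was below the reads needed for comparison.

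Of 42 listed genes of JAK-STAT signalling and the IL-10 response, 3 had a triplet, with 4 compared and none called. IL-10 signals through the kinases Jak1 and Tyk2 to Stat3, and none of these, nor either chain of the IL-10 receptor, had one. Il4ra encodes the interleukin 4 receptor chain, and its 114-base exon is the one known for a soluble form of the receptor. That exon holds a stop at base 18, in capitals above. It had 5, 7 and 71 reads with IL-10 and 1, 2 and 24 untreated, or 7.79% and 5.88% (-9.90 to 9.35 points). The gene itself had 689 and 251 reads, a ratio of 2.77 (2.39 to 3.21), so the 3 introns had more reads with IL-10 while their proportions differed by less than counting error. The interferon receptor gene Ifnar2 had a 124-base exon with 98.1% and 95.9% and a 128-base exon with 91.2% and 95.1%. The phosphatase gene Ptpn1, an attenuator of JAK kinases, had a 221-base exon with 97.0% and 98.4%.

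Of 65 listed genes of innate sensing and NF-kB, 3 had a triplet and 1 was compared. The 142-base exon of Tlr8, an endosomal RNA receptor, had 17, 20 and 13 reads with IL-10 and 17, 28 and 17 untreated, or 58.7% and 57.0% (-19.8 to 23.1 points). The 178-base exon of Nfkb1, the gene of the p105 precursor, had 9 skipping reads with IL-10 and 0 untreated (70.5% and 100%), and the 81-base exon of Map3k7, the kinase TAK1, had 40% and 24.1%, both under 20 informative reads in at least 1 library. For both genes the intervals of the libraries overlapped. The interval of the difference was -46.5 to -5.22 points for Nfkb1 and -14.4 to 44.1 points for Map3k7.

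Among 68 listed leukocyte surface receptors, 22 genes had 46 triplets, of which 41 were compared and none called. Inclusion was numerically higher with IL-10 in 16 and lower in 25, with a median difference of -0.259 points. Their exons were mostly kept, with median inclusion of 96.5% and 94.8%. The C-type lectin gene Clec4d had the most informative reads, with 8425 upstream, 246 downstream and 3 skipping reads with IL-10 and 8636, 362 and 13 untreated, or 99.9% and 99.7% for a 93-base exon. Cd68, a lysosomal membrane glycoprotein of macrophages, had 97.2% and 97.8% for a 434-base exon, skipped by 84 and 86 reads. A 171-base exon of Cd68 had 99.9% and 99.8%, skipped by 3 and 7 reads. Values of Clec4 family genes, Pirb, Lilrb4a and Lilr4b are uncertain, because these genes have near copies between which reads may be split.

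Other receptor exons were mostly skipped or used at an intermediate level. Fcgr2b encodes the inhibitory Fc receptor, and its 141-base exon adds the cytoplasmic insert of the B1 form, which is typical of B cells. It had 5, 5 and 237 reads with IL-10 and 7, 0 and 120 untreated, or 2.07% and 2.83%. Clec7a, whose protein binds fungal beta-glucan, had 5.49% and 5.04% for a 135-base exon, the adhesion receptor gene Adgre5 had 44.2% and 43.9% for a 147-base exon, and Cd47, the ligand of SIRP alpha, had 44.0% and 50% for a 63-base exon. For Sirpa itself a 336-base exon had 6, 610 and 122 reads and 4, 736 and 107, or 71.6% and 77.6% (-11.3 to -0.510 points), with few upstream reads beside the downstream ones.

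Genes of actin, adhesion and the cytoskeleton had 28 triplets in 18 of 77 listed genes, of which 26 were compared. Inclusion was numerically higher with IL-10 in 19 and lower in 7, with a median difference of 1.35 points, and none was called. The deepest belonged to fibronectin, whose extra domains EIIIA and EIIIB are mostly left out of the plasma form. The EIIIA exon of Fn1 (270 bases) had 40, 62 and 746 reads with IL-10 and 20, 54 and 437 untreated, or 6.40% and 7.81% (-3.72 to 0.758 points). EIIIB (273 bases) had 22, 24 and 559 reads and 15, 17 and 391, or 3.95% and 3.93%. The gene had 22259 and 15229 reads, a ratio of 1.47 (1.442 to 1.503), so every one of these introns had more reads with IL-10 at like proportions.

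Zyx encodes zyxin, a focal adhesion protein. Its 93-base exon had 122, 218 and 51 reads with IL-10 and 81, 148 and 57 untreated, or 76.9% and 66.8%, a difference of 10.2 points (1.56 to 18.7) with overlapping intervals. The 24-base exon of Flna, filamin A, had 66, 126 and 327 reads and 47, 119 and 309, or 22.7% and 21.2%. Myo1f, a class I myosin of leukocytes, had 98.6% and 98.3% for a 95-base exon, and Abi1, a subunit of the WAVE complex, had 32.6% and 31.0% for a 177-base exon.

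Endocytosis and membrane trafficking, without Dnm2, had 16 triplets in 11 genes, of which 13 were compared, 7 numerically higher and 6 lower with IL-10, with a median difference of 2.81 points and none called. The most informative reads of this list were in Psap, on its 132-base exon given above and on unannotated intervals of 295 and 32 bases. The 295-base interval had 0.0223% and 0.0386% inclusion, and the 32-base interval 0.0168% and 0.0258%. Picalm encodes a clathrin assembly protein. Its 24-base exon had 240, 145 and 207 reads with IL-10 and 162, 101 and 125 untreated, or 48.2% and 51.3%, near even use in both libraries. A second exon of Picalm, 150 bases, had 19.9% and 15.2%. The sorting receptor gene Sort1 had 56.5% and 51.4% for a 99-base exon. Dab2, an adaptor of clathrin coats, had a 63-base exon with 40, 72 and 1 reads and 13, 32 and 5, or 98.2% and 81.8% (2.51 to 34.1 points), with overlapping intervals. Against another skipping junction the same Dab2 exon had 91.1% and 100%, the opposite order, from at most 5 skipping reads and with under 20 informative reads in the untreated library. Dab2 as a whole had 1576 and 547 reads, a ratio of 2.90 (2.63 to 3.20).

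Values of several well known alternative exons outside these lists, chosen after their values were seen, are given next, and none was called. Cd74, the invariant chain of MHC class II, had 128, 141 and 261 reads with IL-10 and 146, 142 and 260 untreated for the 192-base exon of its longer form, or 34.0% and 35.6% (-7.16 to 3.90 points). Igf1 had 216, 451 and 550 reads and 243, 375 and 548 for the 52-base exon that sets its E peptide, or 37.7% and 36.1% (-2.12 to 5.49). Gnas, the stimulatory G protein alpha subunit, had 79.6% and 81.4% for a 45-base exon that distinguishes its long and short forms. App, the amyloid precursor, had 85.9% and 89.9% for the 168-base exon of its Kunitz domain and 44.9% and 39.7% for the 57-base exon beside it. Max had 5, 15 and 53 reads and 21, 30 and 55 for its 27-base exon, or 15.9% and 31.7% (-26.9 to -4.20), with overlapping intervals. The stop-bearing exon of Sat1, the polyamine acetyltransferase gene, had 12.6% and 7.46% (-6.34 to 15.3).

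The triplets with the most reads belonged to genes that dominate these macrophages, and their skipping or inclusion was rare. Ctss, the cathepsin S gene, had a 124-base exon with 27951, 34490 and 28 reads with IL-10 and 24001, 33289 and 37 untreated, or 99.91% and 99.87%. A 127-base form of that exon of Ctss, which begins 3 bases earlier, was joined by 2812 and 2437 reads. Apoe, the apolipoprotein E gene, had a 169-base exon with 4 and 7 skipping reads beside 15542 and 20059 downstream reads.

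Of 464 host genes with a compared triplet and at least 20 reads, 3 were at least 2-fold higher with IL-10 with an interval above 1, Dab2, Il4ra and the Rab3 regulator gene Rab3il1 (3.17-fold, 2.74 to 3.68), and 0 were at least 2-fold lower. Over all 8362 genes these shares were 1.75% higher and 1.49% lower. The 219-base exon of Rab3il1 had 88, 40 and 20 reads with IL-10 and 33, 16 and 3 untreated, or 76.2% and 89.1% (-25.8 to 5.62 points). None of these 3 genes held the called exon.

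The length and annotation of the exons were not used by the rule beyond the limits of 10 and 500 bases. The shortest was 18 bases. Without Dnm2 there were 842 distinct exons, of which 737 were annotated, 555 of them coding throughout. A length divisible by 3 was found in 56.1% of the 842 (exact binomial 95% interval 52.6% to 59.4%) and in 66.1% of the 555 coding exons (62.0% to 70.1%). Among 50721 coding exons between introns of the same files with no skipping junction it was 38.6% (38.1% to 39.0%), and among 4960 such exons of the same genes 39.4% (38.0% to 40.8%). The intervals of the cassette exons and of both comparison sets did not overlap.

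The share was highest at intermediate inclusion. Over all compared exons without Dnm2 it was 47.9% of 73 under 10% mean inclusion (36.1% to 60.0%), 64.1% of 295 at 10% to 90% (58.3% to 69.5%) and 46.2% of 260 over 90% (39.98% to 52.4%). Of coding exons at 10% to 90% mean inclusion, 73.5% of 200 had a length divisible by 3 (66.8% to 79.5%), against 50.3% of 195 exons over 90% (43.0% to 57.5%). Of 105 exons in no annotated transcript the share was 38.1% (28.8% to 48.1%). Coding exons whose skipping junction is itself annotated had 69.6% of 418, and those whose skipping junction is not had 55.5% of 137. In 52.5% of all 981 exons, Dnm2 included, the length divided by 3. Intervals treat exons as independent, though some share introns.

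**Figure D4:**
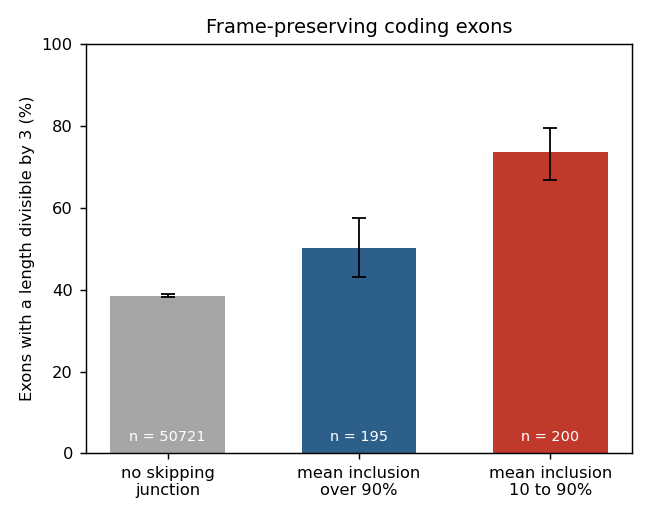
Share of coding exons whose length divides by 3, in percent, with exact binomial 95% intervals as error bars. The bars are 50721 comparison exons with no skipping junction (38.6%), 195 cassette exons over 90% mean inclusion (50.3%) and 200 at 10% to 90% (73.5%). The 3 intervals do not overlap.

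Among 590 exons that follow or begin at the start codon of an annotated transcript, 37 held a stop codon in the frame of that start. The end of the coding sequence was not checked. Exons that hold the ordinary stop, or lie after it, can therefore be among these. Of the 379 with a length divisible by 3, 360 held none. For some exons, the only transcripts with a coding sequence were annotated for nonsense-mediated decay. Those of them that hold the start or stop of the coding sequence numbered 20. Their median inclusion was 12.6% with IL-10 and 7.46% untreated over the 15 compared, against 89.1% and 88.7% over 410 coding exons. Il4ra, Sat1, Rbm39, Lgals1 and Gpnmb had such exons. The exon of the galectin gene Lgals1, 103 bases, had 6, 6 and 8397 reads with IL-10 and 4, 3 and 6085 untreated, or 0.0714% and 0.0575%. Untranslated exons were intermediate, with 41.7% and 39.3% over 49.

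The median cassette exon was 105 bases long and the median comparison exon 120, and their median GC content was 51.4% and 50.9%. The last base was G in 80.5% of 737 annotated cassette exons and in 80.2% of comparison exons, and the exon ended in CAG or AAG in 44.0% and 43.0%. Among 264 annotated cassette exons at 10% to 90% mean inclusion, 81.1% ended in G and 38.6% in CAG or AAG. Of the exons printed whole above, the Hnrnpa2b1 exon ends in AAG, the Ptbp1 and Fn1 EIIIA exons in CAG, and the Usp15 exon in AAA.

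All 3 introns matched annotated introns of a gene in 594 triplets, and in 177 the skipping junction alone was outside the annotation. The exons of the second class were nearly always kept, with medians of 96.5% and 96.7% over 152 compared exons, against 73.6% and 72.0% over 403 of the first. The upstream and downstream introns of an exon had reads within 2-fold of each other in 301 of the 651 compared triplets (46.2%) and were further apart in 350. Alternative starts, ends or neighbouring splice sites beside an exon can place reads on one side alone, and 8 triplets outside Dnm2 enclosed another intron of the files within the exon. For such triplets the mean of both introns is no exact share of transcripts.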

How the data were processed

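RNA was sequenced from 1 library of IL-10 treated and 1 of untreated macrophages. Reads were aligned to mm9 with TopHat and processed with Cufflinks, per the submitters' processing notes. Their versions are not given in the sources used here. The deposited junction lists hold a count of reads for each splice junction, per the file headers, with no scaling. Depth was 3998954 and 4035991 such reads.

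Intron bounds came from the block sizes. Genes were named from GENCODE M21 by chromosome, strand and exact intron length where at least 2 introns of a gene shared an offset of at most 20 Mb (81.4% of junctions, 98.2% of reads). Intervals of inclusion are Clopper-Pearson intervals of the inclusion reads, carried to the inclusion scale, and those of differences combine the bounds of both libraries (MOVER). Ratios of genes compare reads on their own introns, scaled by their total, with an exact conditional interval. The procedure was also run on simulated counts, drawn from the counting model that the intervals assume. Inclusion reads were split evenly between the inner introns, so that run cannot show how the intervals behave for uneven inner introns. Alternatives varied the minimum of reads, the difference, the interval, the introns used, the overhang, the annotation and the scaling.

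The triplets and gene lists were chosen with earlier results of these data known. Exons named were those called, the 6 triplets with the most reads, the 3 of each list with the most informative reads, and 2 on each side of the limit of 5 reads. The others were chosen after their values were seen, and 1 exon of these is not reported here. Python 3.11.15, numpy 2.4.6, pandas 2.3.3, scipy 1.17.1 and matplotlib 3.10.9 were used.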

Additional observations from a re-analysis of the deposited data

How the results depend on the processing

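The single call, Usp15, was lost in 4 settings, and 5 settings added exons. The number of called triplets, 1 of 790 (0 higher, 1 lower), was 5 with no minimum of reads (2 higher, 3 lower), 4 with a minimum of 10 (2 and 2) and 0 with a minimum of 50. It was 4 with a difference of 10 points (1 higher, 3 lower), 4 where the interval of the difference excluded 0 (1 and 3), 4 with the intron of lower coordinate alone (1 and 3), 0 with the other intron alone, 0 with 99% intervals and 0 with at least 20 summed reads for each intron (159 compared). It stayed at 1 with 30 points, an overhang of at least 10 bases, 1 triplet per cluster, annotated introns alone and, chosen after seeing the data, without Dnm2. Exons called at lower minimums were in Ncor1, Slc4a1ap, Senp6 and Ep400, and with 1 intron alone in Mbnl2, Eef1d and Gnb1. The count of 58 triplets with intervals apart was 11 without Dnm2, 7 with 1 triplet per cluster and 3 with 99% intervals. The share of exons with a length divisible by 3, 52.5%, was 63.6% with at least 20 summed reads per intron and 56.1% without Dnm2, and the calls of host genes were the same under both other scalings. No paired analysis was possible because each group has 1 library, and for the same reason no library could be left out.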

Other observations

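Exons longer than those described above formed 115 triplets of 501 to 1000 bases in 25 genes, of which 109 had the reads for comparison. Of these, 81 were in Dnm2, around the introns described above. Without Dnm2, 34 triplets in 24 genes remained, with 28 compared. By the same limits 1 of the 28 was called, beside 0.133% of junction shares at all donor and acceptor sites. These are unlike measures, and a single called triplet is too few to compare them. The call was in Sec31a, which encodes a subunit of the COPII coat of vesicles that leave the endoplasmic reticulum. Its 573-base interval, chr5:100817553-100818125 on the minus strand, had 20 reads on each inner intron and 6 on the skipping junction with IL-10. Untreated, the inner intron of lower coordinate had 7 reads, the other inner intron 19 and the skipping junction 18. Inclusion was 76.9% (58.4% to 90.6%) and 41.9% (27.6% to 58.3%), a difference of 35.0 points (10.3 to 54.8). The upper bound of the untreated library and the lower bound of the IL-10 library were 0.102 points apart.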
